A study of Mus musculus with 12 samples.

Results

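The genes described here are 36 genes of autophagy and the lysosome, measured by bulk RNAseq in the livers of mice given an iron overload, a glucocorticoid, both or neither. They were chosen by name, as the rows of the deposited count table whose Ensembl identifier carries the symbol of a known autophagy or lysosome gene, and make up 36 of the 55414 genes of that table. All 36 passed the filter on low counts and are among the 13857 genes tested. Female C57BL/6J mice, 8 to 12 weeks old, were injected i.p. with 300 mg/kg FeSO4 or with 0.9% NaCl, and 6 h later with 10 mg/kg dexamethasone (DEX, a synthetic glucocorticoid) or with PBS. The 4 groups are named by both injections, NaCl/PBS, NaCl/DEX, FeSO4/PBS and FeSO4/DEX, with 3 mice each, and every liver was collected 8 h after the start and so 2 h after DEX or PBS. The animals carried no transgene or deletion that the labels name. One dose and one time point were sampled, so that the values below describe mRNA at that moment, and RNA levels alone do not measure how fast autophagosomes form or are degraded.

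Autophagy carries cytosolic material to the lysosome. A kinase complex built on ULK1 and ATG13 starts the process, a lipid kinase complex with Beclin 1 and ATG14 marks the membrane, and a ubiquitin-like conjugation system attaches the ATG8 proteins (LC3 and GABARAP) to the growing autophagosome. Cargo receptors such as p62 (Sqstm1) bind both the cargo and the ATG8 proteins and are degraded with them. The lysosome supplies the acid, through the V-ATPase proton pump, and the hydrolases, among them the cathepsins. TFEB and TFE3 are transcription factors that bind the CLEAR box, an extended E-box found before many lysosomal genes. In the liver the pathway supplies amino acids in fasting, and degradation of ferritin in lysosomes releases stored iron.

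The libraries held 16335651 to 23827340 counted reads, and within each group the mice differed by more than sampling noise. In the FeSO4/PBS group, mouse 1 stood apart from the other mice, with a chi-square per gene of 88.4 and 69.3 against them and of 23.5 between those. For the count of members called, and for several genes in which that mouse lies far from the others, values without it are also given. The 10 hepatocyte markers, with albumin among them, summed to 2080429 to 2443591 normalized counts in NaCl/PBS mice and to 2660517 to 2940545 in FeSO4/PBS mice. Of these 10, 4 were called higher and 0 lower. The sums were 2632445 to 2931664 in NaCl/DEX mice and 2924480 to 3092780 in FeSO4/DEX mice. The 10 Kupffer cell and macrophage markers summed to 10647 to 12646 normalized counts in NaCl/PBS mice and to 5616 to 6866 in FeSO4/PBS mice, with 9 of 10 called lower and none at 0. The 8 neutrophil markers, of which 7 were tested, summed to 119 to 299 and to 812 to 969, with 6 called higher. The 5 cholangiocyte markers summed to 533 to 683 and to 1068 to 1376, with 2 called higher and 3 not called. Their LFCs ranged from −0.85 to 3.26, so they did not move together. For endothelial cells, stellate cells and lymphocytes the sums of the NaCl/PBS and FeSO4/PBS mice overlapped, although single markers were called. Of 7 endothelial markers 2 were called higher and 3 lower, and of 7 stellate markers 2 and 2. Of 8 lymphocyte markers 5 were tested, with 0 called higher and 2 lower. Macrophages are rich in lysosomes, and the part of these shifts in the member genes was not tested. In whole liver, fewer cells of a type and less RNA per cell cannot be told apart.

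For the promoters of members, RefSeq gives windows from 250 bases before to 50 after each start (build GRCm38.p6), and 29 of the 36 members matched by symbol. Becn1, Pik3c3, Atg12, Atg16l1, Map1lc3a, Atp6v1h and Ctsb have no entry there. The E-box CACGTG, which reads the same on both strands, occurred in the windows of 11 of these 29 members. Counted by window, 33.3% of the 33 member windows held it, beside 7.15% of all 32851 windows. The longer CLEAR box TCACGTGA, which contains the E-box, occurred in 6 members, Atg3, Mcoln1, Atp6v1a, Atp6v0d1, Ctsd and Gla, which is 18.2% of member windows beside 0.974% of all. The 250 bases before the start are shown for 4 of the 5 genes with 2 or more E-boxes in this window, and for Sqstm1, the member with the highest rise, whose window holds none. Capitals mark the E-boxes, and each sequence runs 5′ to 3′ on the strand of the gene. Lamp1 lies on the plus strand (chr8:13158911-13159160), Ctsd on the minus strand (chr7:142387828-142388077), Gla on the minus strand (chrX:134601006-134601255), Mcoln1 on the plus strand (chr8:3500269-3500518) and Sqstm1 on the minus strand (chr11:50210821-50211070).
Lamp1: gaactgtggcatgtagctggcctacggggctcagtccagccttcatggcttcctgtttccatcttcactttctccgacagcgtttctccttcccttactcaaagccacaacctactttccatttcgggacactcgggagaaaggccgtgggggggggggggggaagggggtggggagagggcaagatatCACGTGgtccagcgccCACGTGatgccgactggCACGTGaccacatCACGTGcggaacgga
Ctsd: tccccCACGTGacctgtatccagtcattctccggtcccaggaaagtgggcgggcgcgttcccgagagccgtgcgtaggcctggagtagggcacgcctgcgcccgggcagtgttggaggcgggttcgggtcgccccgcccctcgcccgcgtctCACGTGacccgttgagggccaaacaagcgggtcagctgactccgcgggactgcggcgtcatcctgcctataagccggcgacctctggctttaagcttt
Gla: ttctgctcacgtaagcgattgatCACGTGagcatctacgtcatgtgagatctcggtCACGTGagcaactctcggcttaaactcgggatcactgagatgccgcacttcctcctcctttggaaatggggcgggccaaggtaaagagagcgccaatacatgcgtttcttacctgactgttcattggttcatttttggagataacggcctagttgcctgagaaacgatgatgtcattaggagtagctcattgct
Mcoln1: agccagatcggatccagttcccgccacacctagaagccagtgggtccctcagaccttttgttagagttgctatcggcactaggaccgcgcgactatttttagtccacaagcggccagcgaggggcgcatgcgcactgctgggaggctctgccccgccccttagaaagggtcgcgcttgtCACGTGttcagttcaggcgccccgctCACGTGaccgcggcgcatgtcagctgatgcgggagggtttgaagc
Sqstm1: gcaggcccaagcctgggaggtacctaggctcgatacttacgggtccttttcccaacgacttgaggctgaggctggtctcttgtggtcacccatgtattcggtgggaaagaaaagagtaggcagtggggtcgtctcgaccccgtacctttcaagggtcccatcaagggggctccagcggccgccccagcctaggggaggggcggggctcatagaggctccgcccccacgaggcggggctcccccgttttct

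Lamp1 held 4 E-boxes, all in the last 61 bases before the start, while Ctsd, Gla and Mcoln1 held 2 each. In Gla both E-boxes lie within CLEAR boxes, and in Ctsd and Mcoln1 1 of the 2 does. A match is a description of letters and not a bound site, since no binding was measured. The antioxidant response element TGACNNNGC, searched on both strands, was found in Map1lc3b, Ulk2, Atg13, Atp6v1a, Ctsd and Hexa, 18.2% of member windows beside 12.4% of all. The AP-1 site TGANTCA was found in Tfe3 alone, 3.03% of member windows beside 7.81% of all. The palindromic glucocorticoid response element of 13 bases was found in 0 of the 33 member windows and in 0.475% of all windows.

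To ask what iron overload does to these genes, FeSO4/PBS mice were compared with NaCl/PBS mice. Of the 36 members, 16 rose, 6 fell and 14 did not pass the test, taking an edgeR FDR of 0.05 or less as the threshold. In the same comparison 27.2% of all tested genes were called higher and 27.3% lower, so that 44.4% of the members rose beside 27.2% and 16.7% fell beside 27.3%. The members were chosen with earlier results of these data known, so these shares, here and in DEX mice, are a description. The median log2 fold change (LFC) of the members was 0.21, beside −0.02 over all tested genes. Beyond an LFC of 1 in size, 4 members rose, Sqstm1, Ctsl, Map1lc3b and Ulk1, and 2 fell, Tfeb and Ulk2. Over all genes 12.5% rose and 14.7% fell this far, and for the 36 members neither share was higher than that. The groups did not overlap for 17 members that were higher in FeSO4/PBS mice and 6 that were lower, beside 29.0% and 31.0% of all genes. Scaling by library size alone moved the median of all genes to −0.34, with 2285 of the 13857 called higher and 5829 lower. By that scaling 11 members were called higher and 11 lower, with a members' median of −0.11. The members' median less that of all genes was 0.23, as with TMM scaling. Without FeSO4/PBS mouse 1, 16 members were called higher and 5 lower.

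**Figure D1:**
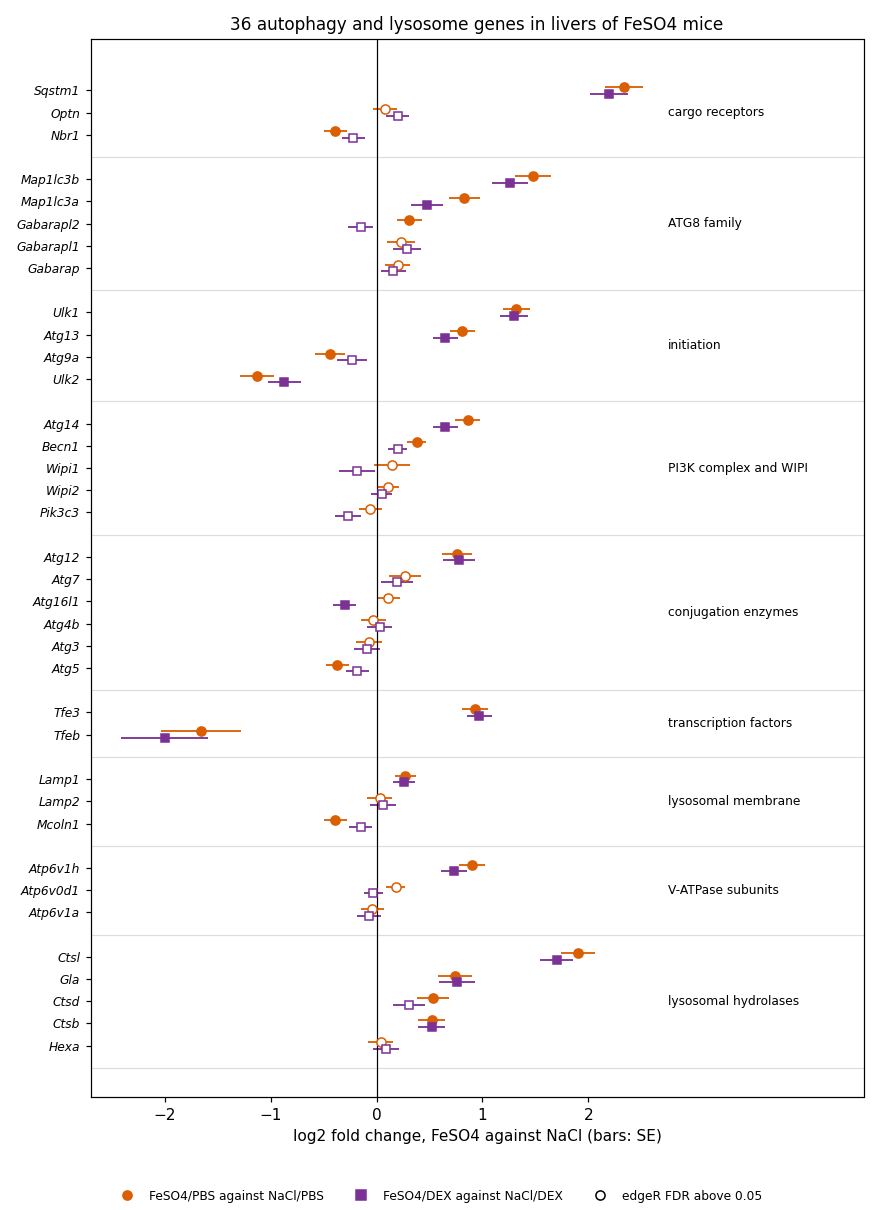
Log2 fold change after FeSO4 (x axis; bars, SE; 3 mice a group) of each of the 36 genes, grouped by role, in PBS mice (circles) and in DEX mice (squares), with filled symbols for an edgeR FDR of 0.05 or less. Sqstm1 and Ctsl lie farthest to the right in both comparisons, Tfeb farthest to the left, and Ulk1 and Ulk2 lie on opposite sides of 0.

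Among the cargo receptors, Sqstm1 had the highest rise of all members. Sqstm1 (ENSMUSG00000015837, chr11:50089572-50107684, GRCm39) encodes p62, which links ubiquitinated cargo to LC3 and also binds KEAP1, the inhibitor of NRF2. Its exons share bases with Mrnip and Mgat4b on the other strand, as those of 23 members do with some gene, and the strand setting of the counting is not given in the sources used here. Its normalized counts were 5686, 5451 and 5863 in NaCl/PBS mice and 5041, 5620 and 5776 in NaCl/DEX mice. They were 38151, 23677 and 24208 in FeSO4/PBS mice and 23959, 29929 and 21397 in FeSO4/DEX mice. All 6 FeSO4 mice lay above all 6 NaCl mice, and mouse 1 of the FeSO4/PBS group was the highest of all. The rise was 5.06-fold in PBS mice (LFC 2.34, SE 0.18, edgeR FDR 2.8e-07), and the LFC was 2.08 without mouse 1. Per kilobase of the annotated main transcript (GENCODE vM39), its level in CPM was 87.5 ± 3.19 in NaCl/PBS mice, rank 6 among the members, and 443 ± 127 in FeSO4/PBS mice, rank 1 (SD, n = 3). The 2 other receptors did not share this rise. Nbr1, a receptor with a like domain order, fell (LFC −0.39, edgeR FDR 0.0072), from 4385 to 4779 normalized counts to 3162 to 3994. For Optn, which serves in the removal of mitochondria and bacteria, the LFC was 0.08 (FDR 0.55).

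Of the 5 ATG8 genes, 3 rose. Map1lc3b (ENSMUSG00000031812, chr8:122317100-122325499) encodes LC3B, the usual marker of autophagosomes. It had 1400, 1752 and 1316 normalized counts in NaCl/PBS mice, 2239, 2069 and 2186 in NaCl/DEX mice, 4066, 4324 and 4054 in FeSO4/PBS mice, and 3711, 6412 and 5454 in FeSO4/DEX mice. The 4 groups formed 3 steps for this gene, with NaCl/PBS lowest, NaCl/DEX above it without overlap, and both FeSO4 groups above that. After FeSO4 it rose 2.79-fold (LFC 1.48, SE 0.17, edgeR FDR 7.5e-06). Its relative Map1lc3a rose with an LFC of 0.83 (FDR 0.00028), from 299 to 394 normalized counts to 543 to 676. Gabarapl2 had an LFC of 0.31 (FDR 0.039), which scaling by library size alone took to −0.0044, and its call was lost under 10 of 19 alternative settings. Gabarap (0.20, FDR 0.18) and Gabarapl1 (0.23, FDR 0.17) did not pass the test.

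The genes that start autophagy moved in opposite directions. Ulk1 (ENSMUSG00000029512, chr5:110931496-110957995) and Ulk2 (ENSMUSG00000004798, chr11:61665841-61746170) encode related kinases of the initiation complex. Ulk1 had 2027, 2311 and 2698 normalized counts in NaCl/PBS mice, 2706, 2907 and 2792 in NaCl/DEX mice, 5413, 6245 and 5954 in FeSO4/PBS mice, and 5995, 7434 and 7221 in FeSO4/DEX mice. Ulk2 had 1479, 1477 and 1529, then 1331, 1471 and 1470, then 559, 733 and 754, and finally 779, 589 and 967 in the same order of groups. Every FeSO4 mouse lay above every NaCl mouse for Ulk1 and below every NaCl mouse for Ulk2. The changes in PBS mice were a 2.50-fold rise of Ulk1 (LFC 1.32, SE 0.13, edgeR FDR 1.5e-06) and a fall of Ulk2 to 0.456 of the control level (LFC −1.13, SE 0.16, FDR 4.4e-05). Atg13, the adaptor that ULK1 and ULK2 share, rose from 903 to 1049 normalized counts to 1489 to 1771 (LFC 0.81, FDR 5.9e-05). Atg9a, a lipid scramblase on the vesicles that seed the membrane, fell (LFC −0.44, FDR 0.017), and this call was lost without FeSO4/PBS mouse 1 (−0.30, FDR 0.063) and without NaCl/PBS mouse 1 (FDR 0.053).

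In the lipid kinase complex, Atg14 and Becn1 rose, and the catalytic subunit did not pass the test. Atg14, the subunit that directs the complex to autophagy, had 498, 532 and 454 normalized counts in NaCl/PBS mice, 697, 570 and 725 in NaCl/DEX mice, 951, 866 and 875 in FeSO4/PBS mice, and 1146, 1029 and 950 in FeSO4/DEX mice. As for Map1lc3b, the NaCl/DEX mice lay between the NaCl/PBS mice and the FeSO4 mice. Atg14 rose 1.81-fold after FeSO4 (LFC 0.86, SE 0.12, edgeR FDR 3.9e-05). Becn1, the scaffold of the complex, rose less, from 944 to 1068 normalized counts to 1274 to 1299 (LFC 0.38, FDR 0.0035), and lost its call when scaled by library size alone (0.06, FDR 0.61). Pik3c3, the catalytic subunit, had an LFC of −0.06 (FDR 0.71). Wipi1 (0.15, FDR 0.48) and Wipi2 (0.11, FDR 0.37), which read the lipid that the complex makes, did not pass the test either.

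Among the 6 conjugation genes, 1 rose and 1 fell. Atg12, the ubiquitin-like protein, rose from 440 to 571 normalized counts to 714 to 1007 (LFC 0.76, edgeR FDR 0.00056). Atg5, to which ATG12 is joined, fell from 871 to 919 to 640 to 759 (LFC −0.37, FDR 0.011). The enzymes Atg3 (−0.07, FDR 0.67), Atg4b (−0.03, FDR 0.86) and Atg7 (0.27, FDR 0.15) did not pass the test, nor did Atg16l1 (0.11, FDR 0.41), which anchors the conjugate at the membrane.

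The transcription factors also moved in opposite directions. Tfeb (ENSMUSG00000023990, chr17:48047837-48103348) had 142, 147 and 140 normalized counts in NaCl/PBS mice, 130, 102 and 107 in NaCl/DEX mice, 83.7, 18.3 and 31.9 in FeSO4/PBS mice, and 19.3, 29.9 and 35.7 in FeSO4/DEX mice. All 6 FeSO4 mice lay below all 6 NaCl mice, with FeSO4/PBS mouse 1 far above the other 5. The fall was to 0.315 of the control level (LFC −1.66, SE 0.38, edgeR FDR 0.0021), and the LFC without mouse 1 was −2.52 (FDR 9.2e-06). Tfe3, the family member with overlapping targets, rose from 407 to 467 normalized counts to 752 to 968 (LFC 0.93, FDR 1.6e-05).

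Of the 3 lysosomal membrane proteins, 1 rose and 1 fell. Lamp1, a main glycoprotein of the lysosomal membrane, had 9762, 9103 and 9343 normalized counts in NaCl/PBS mice, 9766, 9398 and 10210 in NaCl/DEX mice, 11605, 11669 and 10852 in FeSO4/PBS mice, and 11017, 11849 and 12312 in FeSO4/DEX mice. The FeSO4 mice lay above the NaCl mice by a small margin, with an LFC of 0.27 (SE 0.10, edgeR FDR 0.029), and scaling by library size alone turned the sign (−0.05). The call was lost under 7 of the 19 settings. Lamp2, which serves in autophagosome fusion, had an LFC of 0.03 (FDR 0.83). Mcoln1, the calcium and iron channel TRPML1, fell from 650 to 681 normalized counts to 463 to 543 (LFC −0.39, FDR 0.0069).

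Of the V-ATPase subunits, Atp6v1h, a regulatory subunit of the pump, rose from 821 to 1028 normalized counts to 1567 to 1814 (LFC 0.90, edgeR FDR 2.3e-05). Atp6v1a, the catalytic subunit, had an LFC of −0.04 (FDR 0.80), and Atp6v0d1, of the membrane sector, one of 0.18 (FDR 0.12).

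Of the 5 hydrolases, 4 rose. Ctsl (ENSMUSG00000021477, chr13:64507151-64518704) encodes the cysteine protease cathepsin L. It had 10895, 10007 and 10085 normalized counts in NaCl/PBS mice, 13122, 10909 and 9913 in NaCl/DEX mice, 47435, 33538 and 34328 in FeSO4/PBS mice, and 31400, 41151 and 37474 in FeSO4/DEX mice. No FeSO4 mouse came near the NaCl range, and the rise was 3.72-fold (LFC 1.90, SE 0.16, edgeR FDR 5.9e-07; LFC 1.72 without mouse 1). Ctsd, the aspartic protease cathepsin D, had 3038, 2758 and 2814 normalized counts in NaCl/PBS mice, 2928, 2847 and 3522 in NaCl/DEX mice, 5225, 3678 and 3570 in FeSO4/PBS mice, and 3393, 4122 and 4031 in FeSO4/DEX mice. Its LFC was 0.53 (SE 0.15, FDR 0.0074), it was 0.34 without mouse 1 (FDR 0.027), and the FDR was 0.19 with scaling by library size alone. Ctsb, cathepsin B, rose from 9608 to 10542 normalized counts to 12920 to 16501 (LFC 0.52, FDR 0.0031), with an FDR of 0.14 by library size alone. Gla, which cleaves galactose from glycolipids, rose from 117 to 127 to 157 to 235 (LFC 0.74, FDR 0.0017; LFC 0.90 without mouse 1). Hexa, a subunit of hexosaminidase, had an LFC of 0.04 (FDR 0.80).

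**Figure D2:**
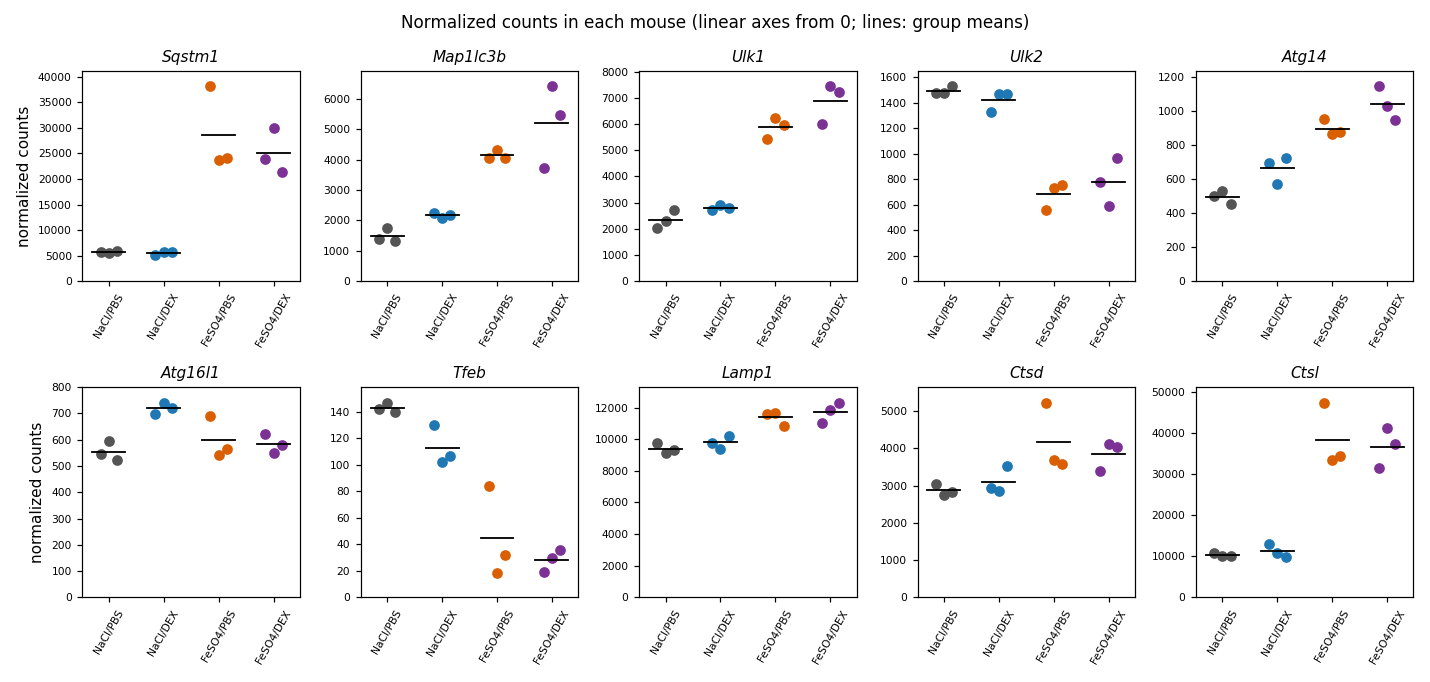
Normalized counts (y axes, linear from 0) of 10 members in each of the 12 mice, by group, with lines at the group means. Sqstm1, Map1lc3b, Ulk1 and Ctsl are higher and Ulk2 and Tfeb lower in all FeSO4 mice, Atg16l1 is highest in NaCl/DEX mice, and Lamp1 moves little on its scale.

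Paired members were also compared as ratios of raw counts within a library. No scaling between libraries can change such a ratio. The pairs were picked after the values had been seen and are a description. The Ulk1 to Ulk2 ratio was 1.37, 1.56 and 1.77 in NaCl/PBS mice and 9.68, 8.51 and 7.90 in FeSO4/PBS mice, and it was 7.47 to 12.6 in FeSO4/DEX mice. The Tfe3 to Tfeb ratio was 2.86, 3.18 and 3.18 in NaCl/PBS mice and 11.6, 43.3 and 23.6 in FeSO4/PBS mice. Among the cathepsins, the Ctsl to Ctsb ratio was 1.03, 1.04 and 0.985 in NaCl/PBS mice and 2.87, 2.38 and 2.66 in FeSO4/PBS mice, so the cathepsins did not change in common proportion. The Atp6v1h to Atp6v1a ratio was 0.975, 0.765 and 0.745, and 1.74, 1.69 and 1.36. In these 4 pairs the FeSO4/PBS mice lay above the NaCl/PBS mice without overlap. So they did for Ctsl to Ctsd, at 3.58 to 3.63 in NaCl/PBS mice and 9.08 to 9.62 in FeSO4/PBS mice. For Map1lc3b to Map1lc3a the ratios were 3.34 to 5.35 and 6.01 to 7.96, again without overlap. For Gabarapl1 to Gabarapl2 the 2 groups overlapped, at 14.0 to 21.4 in NaCl/PBS mice and 15.2 to 20 in FeSO4/PBS mice.

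**Figure D3:**
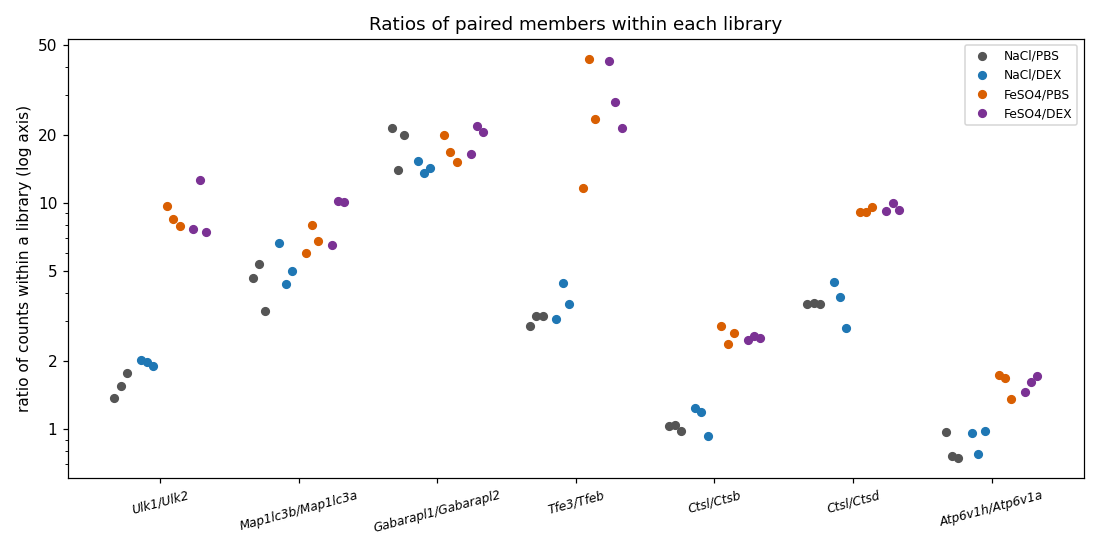
Ratio of the raw counts of a pair of members within each library (y axis, log scale) for 7 pairs, with 1 point per mouse and colors for the groups. The Ulk1 to Ulk2, Tfe3 to Tfeb and Ctsl to Ctsb ratios of the 6 FeSO4 mice lie above those of the 6 NaCl mice, whereas the Gabarapl1 to Gabarapl2 ratios overlap.

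Whether the iron response recurred under DEX was examined in the other 6 mice, FeSO4/DEX against NaCl/DEX, which share no animal with the first comparison. Both comparisons come from the same fit with a shared estimate of the spread, so their calls are not fully independent. There 13 members rose and 3 fell (edgeR FDR of 0.05 or less), beside 22.4% and 20.9% of all genes, which is 36.1% and 8.33% of the members. Beyond an LFC of 1 these were 4 and 1, beside 10.6% and 9.83% of all genes. The groups did not overlap for 16 members that were higher and 5 that were lower, beside 28.8% and 27.1%. Of the 16 members that rose in PBS mice, 13 were called again (81.2%, beside 65.1% of all genes that rose), and 15 had the same sign. Of the 6 that fell, 2 were called again (33.3%, beside 59.8% of all genes that fell), and all 6 had the same sign. Sqstm1 had an LFC of 2.20 (FDR 7.3e-07), Ctsl of 1.70 (FDR 2.2e-06), Ulk1 of 1.30 (FDR 2.7e-06) and Map1lc3b of 1.26 (FDR 4.4e-05). Tfeb had an LFC of −2.0 (FDR 0.0013), Tfe3 of 0.97 (FDR 1.8e-05) and Ulk2 of −0.87 (FDR 0.00053).

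Atg12 (0.78), Gla (0.76), Atp6v1h (0.73), Atg13 (0.65), Atg14 (0.65), Ctsb (0.52), Map1lc3a (0.48) and Lamp1 (0.26) rose again, with edgeR FDRs of 0.00021 to 0.045. Lamp1 was the weakest of them and lost its call under 16 of 19 alternative settings. The 7 members called in PBS mice alone were Nbr1, Gabarapl2, Atg9a, Becn1, Atg5, Mcoln1 and Ctsd. Their LFCs in DEX mice were −0.22, −0.15, −0.23, 0.20, −0.18, −0.15 and 0.31, with FDRs from 0.095 to 0.32. Gabarapl2 is the only one of these 7 whose sign differed between the comparisons. Atg16l1 was called in DEX mice alone, with an LFC of −0.30 (FDR 0.043), and lost its call under 7 of the 19 settings, among them the omission of any 1 NaCl/DEX mouse or of FeSO4/DEX mouse 2 or 3, with FDRs of 0.058 to 0.11. The remaining 13 members passed the test in neither comparison, and their LFCs ranged from −0.27 (Pik3c3) to 0.29 (Gabarapl1) in the DEX mice. None of the differences between the PBS and the DEX mice in the FeSO4 response passed the interaction test below.

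The glucocorticoid response was examined first in mice without FeSO4, NaCl/DEX against NaCl/PBS. Of the 36 members, 3 rose and 0 fell by edgeR, beside 6.5% and 7.15% of all tested genes, and by DESeq2 the numbers were again 3 and 0. At an unadjusted p under 0.05 there were 4 higher and 2 lower. The 3 were Map1lc3b (LFC 0.54, SE 0.17, edgeR FDR 0.046), Atg14 (0.42, SE 0.12, FDR 0.028) and Atg16l1 (0.38, SE 0.11, FDR 0.037). None lay beyond an LFC of 1, beside 2.97% of all genes higher and 3.41% lower, and the mice did not overlap for 6 members that were higher and 5 that were lower, beside 17.6% and 20.3%. Atg16l1 had 544, 596 and 524 normalized counts in NaCl/PBS mice, 697, 741 and 721 in NaCl/DEX mice, 691, 543 and 565 in FeSO4/PBS mice, and 623, 551 and 578 in FeSO4/DEX mice. The NaCl/DEX mice lay above all other 9, although the highest FeSO4/PBS mouse came close to the lowest of them. The replicate number was also used as a block over all 12 libraries, which links same-numbered mice of all groups (see the check given with the methods). With this block the FDR of Atg16l1 was 0.056, and those of Map1lc3b and Atg14 were 0.038 and 0.040. All 3 calls were lost when NaCl/PBS mouse 1 or 3 or NaCl/DEX mouse 1 or 3 was left out, and scaling by library size alone also left 0 calls.

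DEX then was examined in the mice with FeSO4, FeSO4/DEX against FeSO4/PBS. No member was called (0 higher, 0 lower by edgeR), as 0.0% of all 13857 genes were called in either direction, and no member had an unadjusted p under 0.05, beside 900 of all genes. DESeq2 called 0 members, and 5 of all genes higher and 4 lower. Without the filter on low counts edgeR called 99 of all 25013 genes higher and 71 lower, with 0 members among them. The groups did not overlap for 0 members that were higher and for 1 that was lower, Pik3c3 (LFC −0.23), beside 4.45% and 4.85% of all genes. The LFCs of the members ranged from −0.68 (Tfeb, SE 0.43) to 0.32 (Map1lc3b, SE 0.17), with a median of −0.03, and 34 of 36 lay within 0.25 of 0. For the members that responded in NaCl mice, the LFCs were 0.32 for Map1lc3b (95% interval −0.00 to 0.65), 0.22 for Atg14 (−0.01 to 0.45) and −0.04 for Atg16l1 (−0.26 to 0.18). The intervals of Map1lc3b and Atg14 include both 0 and the LFC measured in NaCl mice, whereas that of Atg16l1 ends below it.

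The difference between the DEX response in FeSO4 mice and that in NaCl mice was tested directly as the interaction. It was called for 0 members by edgeR, beside 2.99% of all genes higher and 3.2% lower, and for 0 by DESeq2. At an unadjusted p under 0.05 there were 2, Gabarapl2 (−0.47, edgeR FDR 0.13) and Atg16l1 (−0.41, edgeR FDR 0.15). For Atg14 the interaction was −0.21 (FDR 0.53) and for Map1lc3b −0.22 (FDR 0.66). A loss of the DEX response of members in FeSO4 mice was therefore not detected with 3 mice a group, and the intervals are wide, from −0.68 to 0.24 for Map1lc3b.

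**Figure D4:**
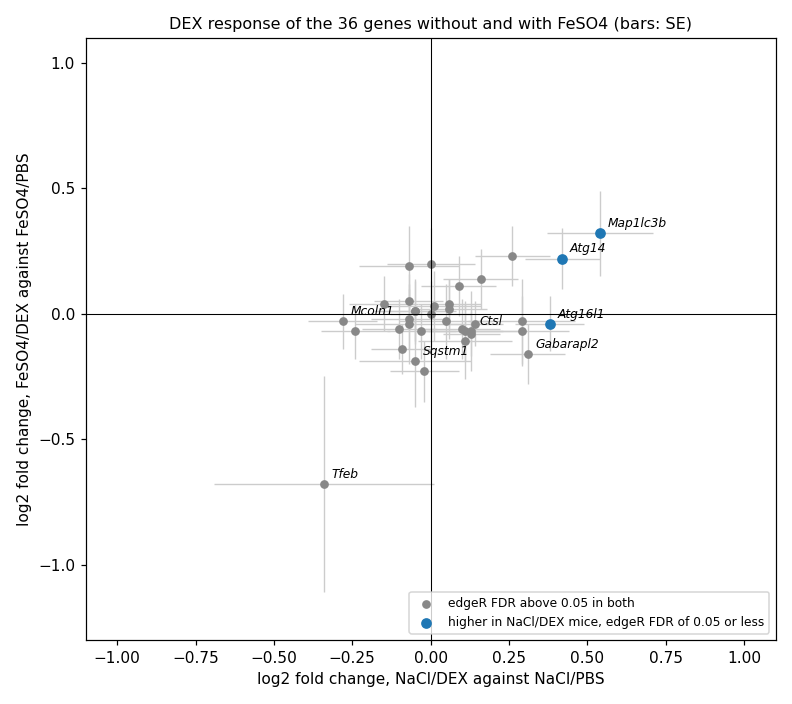
Log2 fold change after DEX in NaCl mice (x axis) and in FeSO4 mice (y axis) for the 36 members, with bars for the SE and 3 mice a group. The 3 genes in blue rose in NaCl mice, Map1lc3b and Atg14 lie above 0 on both axes without passing the test on the y axis, and Tfeb has the widest bars.

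Besides the members, 142 other genes of the pathway, listed by role, were measured and tested. After FeSO4 in PBS mice 41 (28.9%) rose and 35 (24.6%) fell, close to the 27.2% and 27.3% of all genes, with a median LFC of 0.08. Scaled by library size alone, 16 rose and 59 fell, with a median of −0.24 beside −0.34 over all genes. Of all 13857 genes, 2285 rose and 5829 fell by that scaling. Of the 13 other V-ATPase subunits 8 rose and 0 fell by edgeR, and 9 and 0 by DESeq2. At an unadjusted p under 0.05 there were 9, none of them lower, and the median LFC was 0.40. By library size alone, 4 rose and 0 fell. The largest rises were those of Atp6v0a1 (0.87, FDR 0.00028; 0.64 without FeSO4/PBS mouse 1), Atp6v0e (0.77, FDR 0.00013) and Atp6v1g1 (0.75, FDR 0.00084). In DEX mice 5 of the 13 rose and 0 fell, and by library size alone 4 rose and 3 fell.

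Of the 35 other hydrolases and activators 7 rose and 11 fell, and by library size alone 1 rose and 19 fell. Acp2, a lysosomal acid phosphatase, fell with an LFC of −1.55 (FDR 1.9e-06), Pla2g15, a lysosomal phospholipase, with −1.45 (FDR 0.00012), and Sgsh, a heparan sulfatase, with −0.87 (FDR 0.0014). Of the 22 other membrane proteins and transporters 7 rose and 7 fell, and by library size alone 2 rose and 9 fell. Cd63, a tetraspanin of late endosomes, rose with an LFC of 3.17 (FDR 1e-06; 2.73 without FeSO4/PBS mouse 1), while the amino acid transporter Slc36a1 (−1.88, FDR 4.6e-07) and the proton and potassium channel Tmem175 (−1.67, FDR 7.7e-06) fell.

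The other autophagosome genes divided into 7 that rose and 8 that fell, of 25, and by library size alone 4 rose and 14 fell. Rubcn, an inhibitor of autophagosome maturation, fell from 391 ± 36.5 to 61.9 ± 8.36 normalized counts (SD, n = 3; LFC −2.67, FDR 3.2e-08). Wdr45b (1.62, FDR 5.2e-07), of the WIPI family, and the lipid transfer protein Atg2a (1.36, FDR 5e-06) rose. Of the 16 other receptors 4 rose and 1 fell, whereas by library size alone 2 rose and 6 fell. Retreg1, a receptor for the endoplasmic reticulum, rose from 2000 ± 411 to 19700 ± 4870 (LFC 3.30, FDR 3.1e-08), Tax1bp1 rose with 0.68 (FDR 2.8e-05), and Stbd1, the glycogen receptor, fell with −2.42 (FDR 3.8e-07). Ncoa4, the receptor that brings ferritin to the lysosome, had an LFC of −0.13 after FeSO4 (FDR 0.55), and of 0.06 without FeSO4/PBS mouse 1 (FDR 0.77). It rose with 0.61 after DEX in NaCl mice (FDR 0.028). In FeSO4/DEX mice against NaCl/DEX mice Ncoa4 fell with −0.72 (FDR 0.0039), and these groups did not overlap. Its interaction was −0.59 (FDR 0.18), and −0.81 without FeSO4/PBS mouse 1 (FDR 0.024).

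Of the 31 genes of nutrient sensing and of the control of TFEB and TFE3, 8 rose and 8 fell, and by library size alone 3 rose and 11 fell. Ddit4, an inhibitor of mTORC1 and a known glucocorticoid target, rose with an LFC of 3.19 after FeSO4 (FDR 1.5e-07) and of 4.93 after DEX in NaCl mice (FDR 3.7e-08). Foxo1, a transcription factor of the fasting response, rose with 1.83 (FDR 1.6e-07), and Sesn3 fell with −1.15 (FDR 0.00069; −0.87 without FeSO4/PBS mouse 1).

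**Figure D5:**
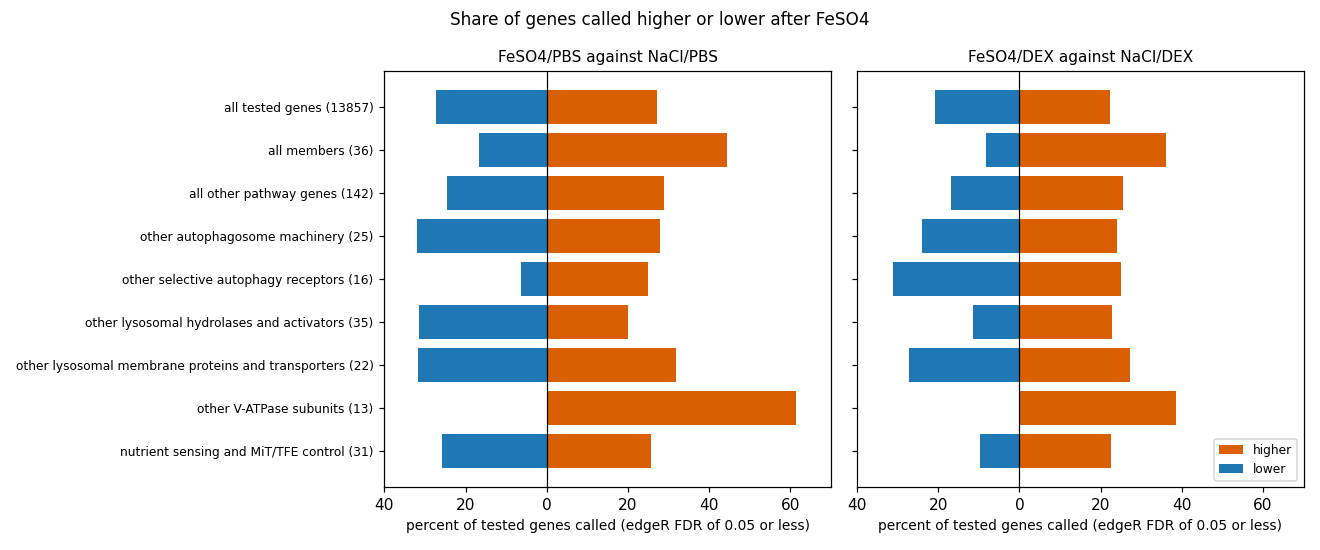
Percent of tested genes called higher (right of 0) or lower (left of 0) after FeSO4 in PBS mice and in DEX mice, for all tested genes, the 36 members, and the 142 other pathway genes with their 6 lists (number of genes in parentheses). The other V-ATPase subunits have 8 and 5 of 13 genes called higher and none lower with TMM scaling, while scaling by library size alone gives 3 lower in DEX mice. The other lists have calls in both directions.

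Members with an E-box changed in both directions after FeSO4. The 11 members with an E-box in the window had LFCs from −0.39 (Mcoln1) to 1.90 (Ctsl), with a median of 0.27, 5 called higher and 2 lower, beside a median of 0.13 in the 18 with a window that holds none. Lamp1 with its 4 E-boxes had an LFC of 0.27, and Mcoln1, with 2, fell. The order of the medians turned for the CLEAR box. The 6 members with one had LFCs from −0.39 to 0.74, with a median of 0.07 beside 0.20 in the 23 others with a window, and with 2 called higher, Gla and Ctsd, and 1 lower, Mcoln1. Sqstm1, Map1lc3b and Ulk1, which rose more than 2-fold, are among the members whose windows hold no E-box.

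The spread within groups was also compared. The median SD of log2 CPM over members was 0.07 in NaCl/PBS mice, 0.11 in NaCl/DEX mice, 0.14 in FeSO4/PBS mice and 0.14 in FeSO4/DEX mice. Over all tested genes it was 0.16, 0.18, 0.27 and 0.21, and since the members are more highly expressed than many genes, this is a description.

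The tested genes with a mean normalized count of at least 100 whose log2 CPM over the 12 libraries was most like that of Sqstm1 were Pcid2, Slc16a1, Rnf103, Plec and Mul1, with Pearson r from 0.992 to 0.993 among 9101 genes. These libraries fall into 6 with FeSO4 and 6 without, so that r takes in the gap between these sets and is given as a description. Of the members ranked, Ulk2 had the lowest r, −0.972.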

How the data were processed

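Livers of 12 mice were profiled by bulk RNAseq. According to the methods and the labels, the authors prepared stranded mRNA libraries, sequenced 100 cycles single-end on a NovaSeq instrument, used FastQC for read quality, aligned to mm39 (STAR 2.7.10b) and deposited raw read counts per Ensembl gene. The strand column is not given in the sources used here, and 23 members share exon bases with a gene on the other strand in GENCODE vM39 (GRCm39), which gave 54749 of 55414 symbols.

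Counts were tested with edgeR 4.0.16 (quasi-likelihood, TMM, filterByExpr, 1 mean per group, all 12 libraries, Benjamini-Hochberg over 13857 genes). Normalized counts are TMM-scaled to the mean library size. The biological coefficient of variation was 0.169. On counts simulated for FeSO4/PBS against NaCl/PBS (13501 genes), edgeR recovered 163 of 200 genes changed by an LFC of 1, with 5 false calls. The simulation gave all genes the same spread and changed far fewer genes than were called here. It therefore did not test the scaling between libraries. DESeq2 1.42.0 was an alternative. Totals are given in the report. P-values rest on the spread between mice pooled over the 4 groups of 3 and drawn toward that of other genes, not on the compared groups alone. The labels do not name separate litters or days. Same-numbered NaCl/PBS and NaCl/DEX mice correlated at 0.18 to 0.31 in their deviations from the group means, and no other pair of groups had all 3 above 0.1. Mice of different number were not set beside these, so a pairing by replicate number was not tested.

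All 36 members are reported. Values in 12 libraries are given for members beyond an LFC of 1 after FeSO4, for those called after DEX, and for Sqstm1, Map1lc3b, Tfeb, Lamp1 and Ctsd. From each other list, up to 3 called genes with the largest LFC, no overlap and at least 100 normalized counts are named, plus Ncoa4 and Ddit4. Members and lists were chosen with earlier results of these data known.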

Additional observations from a re-analysis of the deposited data

Results flagged for a closer look

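No member gene met a criterion for a closer look. Among the 142 other pathway genes, 10 had a DEX response in FeSO4 mice that differed from that in NaCl mice by the edgeR interaction test (FDR of 0.05 or less), 5 higher and 5 lower, beside 2.99% and 3.2% of all genes. DESeq2 called 6 higher and 10 lower. Without FeSO4/PBS mouse 1 edgeR called 5 higher and 11 lower, with the lower calls among the selective autophagy receptors going from 1 to 5, and without any 1 of the other 11 libraries it called 1 to 3 higher and 3 to 5 lower. Ddit4, Retreg1, Foxo1 and Fnip2 were called under all 18 alternative settings run, whereas Zfyve1 was not called under 1, Foxo3 under 5, Vmp1 under 8, Flcn and Slc36a1 under 10 each and Atg101 under 13. Ddit4, an inhibitor of mTORC1, differed most, by −3.55 (SE 0.31, FDR 1.9e-05), with normalized counts of 99.6 ± 4.08 (NaCl/PBS) and 3030 ± 194 (NaCl/DEX) without FeSO4, and of 907 ± 217 (FeSO4/PBS) and 2360 ± 795 (FeSO4/DEX) with it (SD, n = 3). Its LFC after DEX was 4.93 in NaCl mice and 1.38 in FeSO4 mice (edgeR FDR 0.18). The interval in FeSO4 mice was 0.97 to 1.79, with an unadjusted edgeR p of 1.3e-05. The FeSO4/DEX mice lay above the FeSO4/PBS mice without overlap, so a smaller rise was seen there, which did not pass the FDR threshold. In that comparison edgeR called 0 of the 142 genes, and DESeq2 called 1 higher. The other differences below 0 were those of Retreg1 (−1.56, FDR 0.0022), Foxo1 (−1.02, FDR 0.0052), Foxo3 (−1.0, FDR 0.028) and Vmp1 (−0.65, FDR 0.032). These 4 genes rose after DEX in NaCl mice (LFC 1.55, 1.21, 1.06 and 0.65) and had LFCs from −0.01 to 0.19 in FeSO4 mice. FeSO4 without DEX had already raised Retreg1 (LFC 3.30) and Foxo1 (LFC 1.83), by more than DEX did in NaCl mice. Vmp1 had 1353 to 1475 normalized counts in NaCl/PBS mice, 1992 to 2387 in NaCl/DEX mice and 1988 to 2383 in FeSO4/PBS mice. Differences above 0 were those of Fnip2 (1.19, FDR 0.0057), Zfyve1 (1.18, FDR 0.016), Atg101 (0.86, FDR 0.043), Slc36a1 (0.84, FDR 0.038) and Flcn (0.71, FDR 0.035). These 5 fell after DEX in NaCl mice (LFC −1.13, −0.87, −0.69, −0.90 and −0.75) and had LFCs from −0.06 to 0.31 in FeSO4 mice. FeSO4 without DEX had already lowered Slc36a1 (LFC −1.88). Zfyve1 had 1154 to 1187 normalized counts in NaCl/PBS mice, 631 to 652 in NaCl/DEX mice and 304 to 599 in FeSO4/PBS mice. For Atg101 these were 322 to 378, 202 to 231 and 155 to 247. What the level reached with FeSO4 alone contributes to the differences in DEX response was not tested.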

How the results depend on the processing

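Of the 22 calls of members after FeSO4 in PBS mice, 16 held under all 19 alternatives that change the fit, and of the 16 in DEX mice 13 did. The 3 calls after DEX in NaCl mice each failed under at least 5. Scaling by library size alone gave 11 members lower after FeSO4 in PBS mice and 9 lower in DEX mice, and 0 higher and 2 lower after DEX in NaCl mice. Of all 13857 genes it called 2285 higher and 5829 lower after FeSO4 in PBS mice, and 2151 and 4146 in DEX mice. After DEX in NaCl mice it called 618 higher and 1776 lower. It turned Gabarapl2 (−0.0044) and Lamp1 (−0.05) after FeSO4. It also ended the calls of Becn1, Ctsb and Ctsd in PBS mice and of Lamp1 and Map1lc3a in DEX mice. Beyond an LFC of 1, 4 members were higher and 2 lower after FeSO4 in PBS mice, 4 and 1 in DEX mice, and 0 higher after DEX in NaCl mice. Leaving out 1 library in turn gave 14 to 16 members higher and 5 to 6 lower after FeSO4 in PBS mice. After DEX in NaCl mice it gave 0 to 3 higher, with 0 without NaCl/PBS mouse 1 or 3 or NaCl/DEX mouse 1 or 3, and 1 without NaCl/DEX mouse 2. After FeSO4 in DEX mice it gave 11 to 13 higher and 2 to 5 lower, with 5 without FeSO4/PBS mouse 1. The members' median LFC less that of all genes was there 0.09 to 0.17, with 0.11 without NaCl/DEX mouse 2 and 0.09 without FeSO4/DEX mouse 2. With the replicate block, 14 members were higher and 6 lower after FeSO4 in PBS mice, 12 and 2 in DEX mice, and 2 higher after DEX in NaCl mice. The block ended the calls of Gabarapl2 and Lamp1 in PBS mice, of Lamp1 and Atg16l1 in DEX mice and of Atg16l1 after DEX, and no other. The causes of these changes were not tested.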
